A study of Mus musculus with 4 samples.

Results

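Imprinted retrogenes that sit inside introns of other genes were followed in mouse embryonic stem cells that lack ZFP57. The genes were chosen by symbol as 4 loci: the pairs Mcts2 and H13, Nap1l5 and Herc3, and Zrsr1 and Commd1, in which the retrogene is named before its host, and Inpp5f, whose retrogene-derived transcript has no entry of its own in the tables. All 7 genes were found among the 26130 genes listed. Zrsr1 was listed 2 times, and the entry with the higher mean level was taken. RNA came from 4 libraries of feeder-free cultures in serum and leukemia inhibitory factor: Zfp57-/- and wild-type cells of the line E14 (strain 129P2/OlaHsd), and Zfp57-/- and wild-type cells of the line JB1 (strain JF1/B6). Each combination of line and genotype was 1 library, so no value has a replicate within a line. The 95% intervals of levels, folds and read ratios given below cover counting error only. The labels say neither how the Zfp57 alleles were made nor whether a knockout line was 1 clone. The series asked how mRNA levels differ without ZFP57.

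Genomic imprinting keeps one parental copy of a gene silent through DNA methylation laid down in the germ line. At these loci the CpG-rich promoter of a retrogene, an intronless copy made from the mRNA of another gene, is methylated on the maternal copy, and the retrogene is read from the paternal copy. Where the retrogene is silent, the host transcript can run on through the intron, and where it is active, shorter host transcripts that end upstream of it have been described for H13 and Herc3. ZFP57 is a KRAB zinc finger protein that binds the hexamer TGCCGC when its CpG is methylated and recruits KAP1, which keeps that methylation in place. The deposited values count both parental copies together and carry no methylation, so neither the active copy nor the methylation state was measured here.

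The promoter windows of the 3 retrogenes, from 250 bases before to 50 bases after the start site that RefSeq gives on GRCm38.p6, are shown because they hold or lack that hexamer, in capitals on either strand, and because retrogene promoters are where imprinted methylation is known from these loci.
Mcts2 (chr2:152686898-152687197, plus strand): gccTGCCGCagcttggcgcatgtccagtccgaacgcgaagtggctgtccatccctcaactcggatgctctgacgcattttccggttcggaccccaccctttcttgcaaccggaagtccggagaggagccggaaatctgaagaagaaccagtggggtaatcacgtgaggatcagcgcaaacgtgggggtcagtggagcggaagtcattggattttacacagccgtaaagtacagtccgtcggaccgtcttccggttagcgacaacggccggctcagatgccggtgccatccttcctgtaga
Nap1l5 (chr6:58907077-58907376, minus strand): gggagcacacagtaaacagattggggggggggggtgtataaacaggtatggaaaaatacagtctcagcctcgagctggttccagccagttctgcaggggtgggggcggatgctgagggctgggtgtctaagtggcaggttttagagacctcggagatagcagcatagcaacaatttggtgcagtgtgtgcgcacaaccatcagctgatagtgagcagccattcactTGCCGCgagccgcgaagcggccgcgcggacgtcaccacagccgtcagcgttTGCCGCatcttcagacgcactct
Zrsr1 (chr11:22971755-22972054, plus strand): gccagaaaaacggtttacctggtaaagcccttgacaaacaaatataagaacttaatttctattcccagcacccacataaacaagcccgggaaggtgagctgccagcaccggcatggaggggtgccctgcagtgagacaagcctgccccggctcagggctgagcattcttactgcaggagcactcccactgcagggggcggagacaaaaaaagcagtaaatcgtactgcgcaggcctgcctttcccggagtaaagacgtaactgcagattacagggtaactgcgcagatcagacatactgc
Nap1l5 had 2 copies of TGCCGC, which begin 24 bases before and 27 bases after the start site. Mcts2 had 1 copy, which begins 247 bases before it. The Zrsr1 window had none. Of 32851 promoter windows of this length, 11.6% held the hexamer or its reverse complement GCGGCA at least once and 1.53% held it 2 or more times, with overlapping matches counted separately. The windows of H13, Herc3 and Inpp5f had no match. Commd1 has 2 windows, and 1 of them had a single match. The windows held 25 CpG dinucleotides for Mcts2, 17 for Nap1l5 and 10 for Zrsr1, against a median of 7 over all windows, and 18.4%, 31.4% and 43.5% of all windows held as many. Those of the hosts held 21 for H13, 4 for Herc3, 18 and 17 for the pair of Commd1 windows and 15 for Inpp5f. The Commd1 window with 17 (chr11:22972817-22973116) lies inside the GENCODE M21 span of Zrsr1 (22972005 to 22976496), so it is also a stretch of the retrogene. The Herc3 window begins at 58833450, and other Herc3 transcripts start before it, the first at 58831465, so their start sites were not covered. The Zrsr1 entry taken begins at 22872029 and the other Zrsr1 entry at 22873215 (mm9). The start of that other entry was not covered by the Zrsr1 window. A match describes these letters and was not tested for binding.

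Levels are reads per 1000000 reads of the library total (RPM), recovered from the deposited log2 values. Differences are log2((RPM in the knockout + 1)/(RPM in the wild type + 1)), and a fold is a ratio of RPM without the added 1. The listed genes held between 26801865 and 66849394 reads a library. Zfp57 itself was at 51.8 RPM in the E14 knockout, against 135 RPM in E14 wild type, and at 42.9 RPM in the JB1 knockout, against 796 RPM in JB1 wild type. Both directions matched the labels, and which part of the gene the alleles lack is not stated there. All 9 embryonic stem cell markers were present in every library, with Pou5f1 at 442 RPM in the E14 knockout, 480 RPM in E14 wild type, 940 RPM in the JB1 knockout and 925 RPM in JB1 wild type. Of 7 fibroblast or feeder cell markers, summed at 2.15 and 1.60 RPM in the E14 knockout and wild type and at 13.5 and 7.62 RPM in JB1, Dcn had 0 reads in all 4 libraries. In JB1, 2 of them reached 1 RPM, and both were higher in the knockout. Thy1 was at 7.95 and 3.61 RPM and Col1a1 at 5.19 and 3.67 RPM in the JB1 knockout and wild type. Nanog was lower in both knockouts, at 137 and 228 RPM in the E14 knockout and wild type and at 362 and 693 RPM in JB1, and 8 of the 9 stem cell markers in E14 and 6 in JB1 were lower, as were 46.5% and 48.5% of all genes; the part of this in the results below was not tested. Primitive endoderm markers summed to 5.40 and 7.53 RPM in the E14 knockout and wild type and to 42.5 and 34.4 RPM in JB1, trophoblast markers to 4.13 and 2.60 RPM and to 8.25 and 8.03 RPM, and mesoderm markers to at most 1.19 RPM.

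In E14 all 3 retrogenes were higher in the knockout library, where 53.5% of all genes were. As deposited, none of their 3 hosts differed beyond counting error. The Commd1 entry spans the gene B3gnt2. With all B3gnt2 reads taken off, Commd1 would be at 29.6 RPM in the E14 knockout and 25.6 RPM in E14 wild type, a difference of 0.20. In JB1, where 51.5% of all genes were higher, only Nap1l5 among the retrogenes stood higher by more than counting error. The hosts Herc3 and Commd1 were lower there by more than it. Of the measured JB1 genes, 41.7% differed as far as Herc3 and 47.3% as far as Commd1, and 13.7% were as high as Nap1l5. The share of all genes past counting error was not counted. Inpp5f was higher in the knockout of both lines. No member differed 2-fold on the log2(RPM + 1) scale in either line, against 1.22% of 12276 genes in E14 and 4.08% of 13132 genes in JB1 (0.953% higher and 0.269% lower in E14, 2.5% higher and 1.58% lower in JB1). In bulk RNA, fewer cells with a transcript and less of it per cell cannot be told apart. The differences of the retrogenes ranged between 0.30 and 0.71 in E14 and between −0.09 and 0.49 in JB1.

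**Figure D1:**
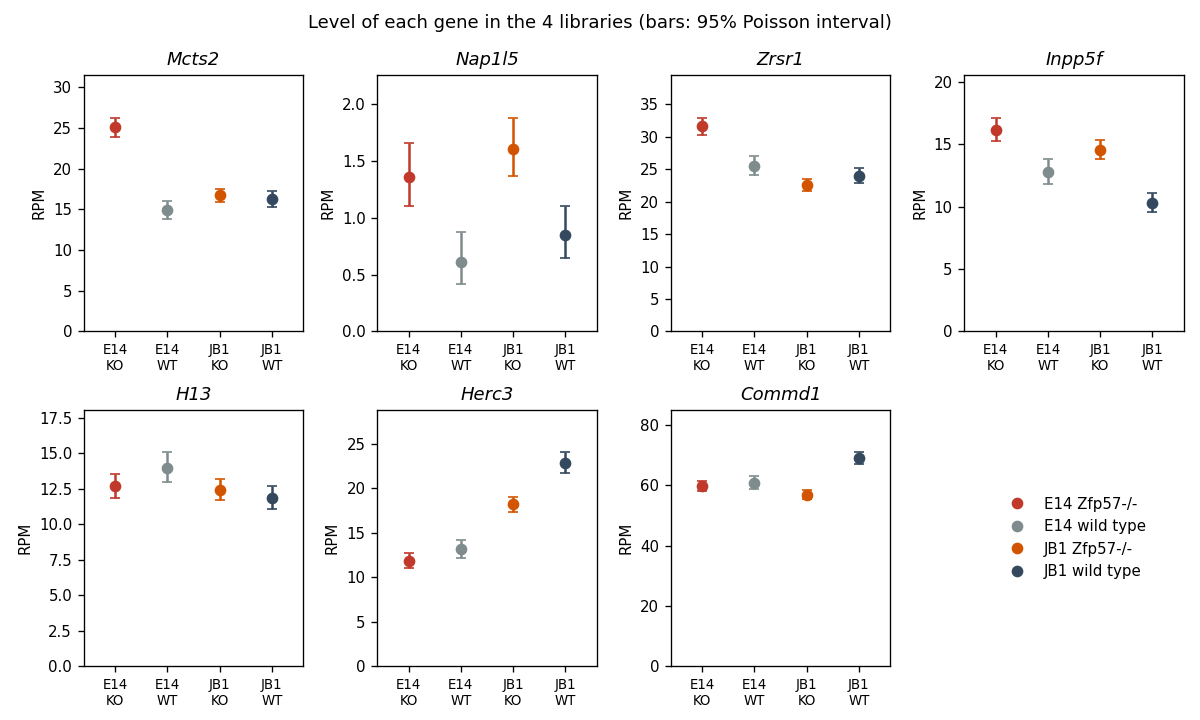
Level of each of the 7 genes in RPM (vertical axis, from 0) in the knockout and wild-type library of E14 and of JB1, with 95% Poisson intervals. Mcts2 and Zrsr1 stand apart in the E14 knockout (25.1 and 31.6 RPM), whereas Nap1l5 and Inpp5f are above the wild type in both knockouts.

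Mcts2, an intronless copy of Mcts1 that encodes a translation reinitiation factor (chromosome 2, 152512884 to 152513676, plus strand, mm9), was at 25.1 RPM in the E14 knockout and at 14.9 RPM in E14 wild type. The E14 difference was 1.68-fold (95% interval 1.55 to 1.84) or 0.71 on the log2 scale, and 2.39% of the measured genes of that line were as high. In JB1 it was at 16.7 RPM in the knockout and 16.3 RPM in the wild type, 1.03-fold (95% interval 0.953 to 1.11). Mcts2 was thus higher in 1 of the 2 knockout libraries, and the JB1 pair did not differ beyond counting error. In order of level the E14 knockout came first, and the intervals of neighbours among the JB1 knockout, JB1 wild type and E14 wild type overlapped.

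Nap1l5, a nucleosome assembly protein family member best known from brain (chromosome 6, 58855228 to 58857120, minus strand, mm9), was the retrogene with the lowest level. It had 1.36 RPM (96 reads) in the E14 knockout and 0.614 RPM (31 reads) in E14 wild type, a 2.21-fold difference (95% interval 1.46 to 3.43). In JB1 it had 1.61 RPM (156 reads) in the knockout and 0.853 RPM (59 reads) in the wild type, 1.89-fold (95% interval 1.39 to 2.59). The knockouts of both lines lay above both wild types, also when scaled to the reads in the listed genes. The neighbours in the order, the JB1 and E14 knockouts at the top and the JB1 and E14 wild types at the bottom, overlapped in their counting intervals. At these levels the added 1 RPM shrinks the log2 differences, which were 0.55 in E14 and 0.49 in JB1. They were 0.90 and 0.75 with an added 0.25 RPM, and 0.18 in each line with an added 5 RPM. With the added 1 RPM, 4.41% of the measured genes in E14 and 13.7% in JB1 were as high as Nap1l5.

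Chromosome 6 as a whole was lower in the E14 knockout, with a median of −0.28 over 546 genes other than the members, so Nap1l5 lay 0.83 above its chromosome there and 0.44 above it in JB1, where the median was 0.06. Because Nap1l5 is best known from brain, neural markers are given beside it. The 5 of 7 that are listed in the tables summed to 55.7 RPM in the E14 knockout and 43.7 RPM in E14 wild type, and to 26.3 RPM in the JB1 knockout and 21.8 RPM in JB1 wild type. Tubb3 made up most of this, and Snap25 stayed at or below 0.297 RPM in every library. In each line 3 of the markers reached 1 RPM. In the E14 knockout 2 of these were higher and 1, Pax6, was lower. In the JB1 knockout all 3 were higher, among them Syp at 2.04 RPM against 1.07 RPM in the wild type. Of all genes, 53.5% and 51.5% were higher in E14 and JB1. The part of the neural markers in the Nap1l5 result was not tested.

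Zrsr1, an intronless relative of the splicing factor gene Zrsr2 (chromosome 11, 22872029 to 22874908, plus strand, mm9), was at 31.6 RPM in the E14 knockout and 25.6 RPM in E14 wild type, 1.24-fold (95% interval 1.16 to 1.33). In JB1 it was at 22.6 RPM in the knockout and 24.0 RPM in the wild type, 1.06-fold lower (95% interval 0.998 to 1.13). Of the measured genes, 15.1% were as high in E14 and 39.9% as low in JB1. On the RPM scale only the E14 knockout stood above all other libraries by more than counting error. The order between the lines depends on the denominator, as given below. The other Zrsr1 entry, which shares 1694 bases with the first, gave 25.8 and 20.8 RPM in the E14 knockout and wild type and 17.3 and 17.4 RPM in JB1. Its differences were 0.30 in E14 and −0.01 in JB1, so the E14 value was alike for both entries. Per kilobase of its entry, Mcts2 stood above Zrsr1 and Zrsr1 above Nap1l5 in every library, for example 31.6, 11.0 and 0.717 RPM per kilobase in the E14 knockout and 18.8, 8.87 and 0.324 RPM per kilobase in E14 wild type.

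Inpp5f encodes a phosphoinositide phosphatase, and an imprinted transcript that starts inside it, described from brain, carries the retrogene-derived first exon (chromosome 7, 135754842 to 135839939, plus strand, mm9). It was at 16.2 RPM in the E14 knockout and 12.8 RPM in E14 wild type, 1.26-fold (95% interval 1.15 to 1.39). In JB1 it was at 14.6 RPM in the knockout and 10.3 RPM in the wild type, 1.41-fold (95% interval 1.29 to 1.55). Of the measured genes, 13.9% in E14 and 15.1% in JB1 were as high. Each knockout lay above its own wild type, and among neighbours in the order the E14 knockout and JB1 knockout overlapped in their intervals, as did the JB1 knockout and E14 wild type. GENCODE M21 lists 9 transcripts of the gene, of which 7 start inside it, and the deposited value is a single one for the gene, so transcripts were not separated.

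Among the hosts, H13, which encodes a signal peptide peptidase (chromosome 2, 152495197 to 152534406, plus strand), was at 12.7 RPM in the E14 knockout and 14.01 RPM in E14 wild type, and at 12.4 RPM in the JB1 knockout and 11.9 RPM in JB1 wild type. Both intervals of its fold included 1. Herc3, a HECT-type ubiquitin ligase gene (chromosome 6, 58781459 to 58870392, plus strand), was at 11.9 RPM in the E14 knockout and 13.2 RPM in E14 wild type, 1.11-fold lower (95% interval 1.00 to 1.23). The JB1 libraries had 18.2 RPM in the knockout and 22.9 RPM in the wild type, and Herc3 was 1.26-fold lower (95% interval 1.17 to 1.35). The JB1 library pair thus differed beyond counting error and the E14 pair did not. In E14 the Herc3 difference of −0.14 lay above the chromosome 6 median, and it became 0.14 with that median taken off.

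Commd1, whose product takes part in copper handling and endosomal sorting (chromosome 11, 22734744 to 22882382, minus strand), was at 59.7 RPM in the E14 knockout and 60.8 RPM in E14 wild type, 1.02-fold lower (95% interval 0.972 to 1.07). The JB1 libraries had 56.8 RPM in the knockout and 68.9 RPM in the wild type, 1.21-fold lower (95% interval 1.17 to 1.26). The JB1 wild type stood above the other 3 libraries. The Commd1 entry spans all of B3gnt2, a glycosyltransferase gene on the same strand, which had 30.1 and 35.2 RPM in the E14 knockout and wild type and 29.7 and 34.1 RPM in JB1. If all of these reads were also counted for Commd1, 29.6 and 25.6 RPM would remain in the E14 knockout and wild type, a difference of 0.20 in place of −0.03, and 27.1 and 34.8 RPM in JB1, a difference of −0.35 in place of −0.27. The direction of Commd1 in E14 is therefore uncertain.

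Dividing the reads of a retrogene by those of its host within a library cancels the scaling of the library and any shift common to both genes. The Mcts2-to-H13 ratio was 1.98 in the E14 knockout and 1.06 in E14 wild type, a ratio of ratios of 1.86 (95% interval 1.63 to 2.12), and 1.34 and 1.37 in the JB1 knockout and wild type, 0.984 (95% interval 0.874 to 1.11). The Nap1l5-to-Herc3 ratio was 0.114 in the E14 knockout and 0.0467 in E14 wild type, 2.45 times as high (95% interval 1.60 to 3.85), and 0.0883 in the JB1 knockout and 0.0372 in JB1 wild type, 2.37 times as high (95% interval 1.73 to 3.28). The Zrsr1-to-Commd1 ratio was 0.530 in the E14 knockout and 0.420 in E14 wild type, 1.26 times as high (95% interval 1.16 to 1.37), and 0.397 and 0.348 in the JB1 knockout and wild type, 1.14 times as high (95% interval 1.06 to 1.23). In JB1 the Zrsr1 shift came with a lower Commd1 rather than a higher Zrsr1. With B3gnt2 reads taken off Commd1, the Zrsr1 minus Commd1 difference was 0.09 in E14, against 0.32 as deposited, and 0.27 in JB1, against 0.19.

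**Figure D2:**
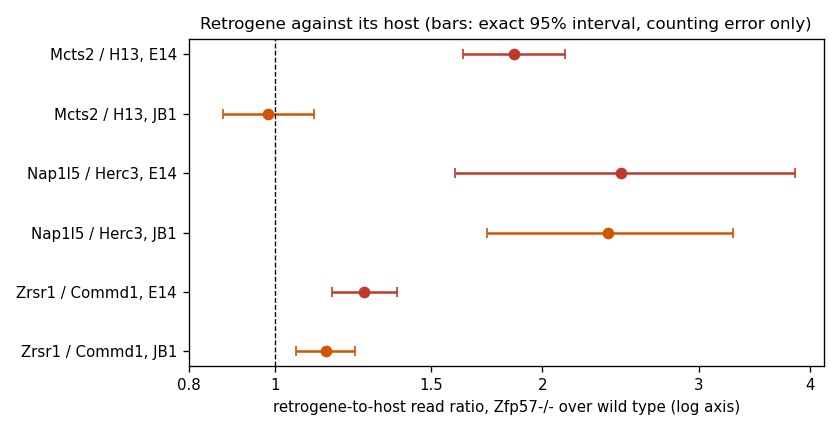
Retrogene-to-host read ratio in the knockout divided by that in the wild type (horizontal log axis) for 3 pairs in E14 and JB1, with exact conditional 95% intervals for counting error. Of 6 points, 5 lie above 1 with intervals clear of it, and Mcts2 to H13 in JB1 (0.984) does not. This count was not made for other gene pairs. The points use Commd1 as deposited. With B3gnt2 reads taken off Commd1, the E14 Zrsr1 minus Commd1 log2 difference was 0.09, against 0.32.

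The reads of retrogene and host could in part be shared, since the strand setting of the counting is not known, and without strand, reads of Nap1l5 or Zrsr1 cannot be told from those of their oppositely oriented hosts where exons or unspliced RNA overlap. In GENCODE M21 (GRCm38) the exons of Mcts2 and of Nap1l5 share 0 bases with exons of their hosts, whereas those of Zrsr1 and Commd1 share 412 bases on opposite strands. Mcts2 lies on the strand of its host, so strand would not separate a read in unspliced H13 RNA from one of Mcts2. H13 had fewer reads than Mcts2 in each of the 4 libraries, so not all Mcts2 reads were counted for H13. Of 50-base windows of the retrogene transcripts, 0.695% for Mcts2 and 0 for Nap1l5 also occurred in transcripts of another gene, and for Zrsr1 7.13% occurred in Commd1 on the opposite strand. The other gene for Mcts2 was Gm8328, and no window was shared with Mcts1 or Zrsr2.

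A limma model of log2(RPM + 1), in which the genotype effect is common to E14 and JB1 and the line is a further term, was fitted to 12644 genes with Benjamini-Hochberg adjustment, and its p-values measure only the spread between these libraries. With 1 residual degree of freedom a gene, the test called 0% of all genes at an adjusted p under 0.05, and 7.95% (1005 genes) had an unadjusted p under 0.05, none of them a member. Zfp57 itself was not called, with a shared difference of −2.77 ± 0.58 (SE, limma adjusted p = 0.623). Not being called therefore does not show that a gene was unchanged. The shared difference was 0.52 ± 0.23 (SE, 2 lines) for Nap1l5 (limma adjusted p = 0.631), 0.39 ± 0.17 for Inpp5f (limma adjusted p = 0.632) and 0.38 ± 0.21 for Mcts2 (limma adjusted p = 0.657). It was 0.11 ± 0.17 for Zrsr1, −0.04 ± 0.18 for H13, −0.23 ± 0.17 for Herc3 and −0.15 ± 0.16 for Commd1, with limma adjusted p between 0.713 and 0.967. Nap1l5 and Inpp5f were higher in 2 of 2 knockouts, and their limma 95% intervals, −0.03 to 1.07 and −0.03 to 0.81, did not exclude 0. Whether the lines differed from each other in their knockout effect could not be tested, since each has 1 library a genotype.

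The order of levels between the lines depends on the denominator. Per 1000000 reads in the listed genes, Mcts2 was at 46.7 in the E14 knockout, 28.1 in E14 wild type, 24.3 in the JB1 knockout and 23.7 in JB1 wild type, so E14 wild type moved to the place after the E14 knockout. Zrsr1 was then at 58.9 and 48.1 in the E14 knockout and wild type and at 32.7 and 35.0 in JB1. The listed genes made up 53.7% and 53.1% of the totals of the E14 knockout and wild type and 68.9% and 68.6% in JB1, so the shares of knockout and wild type were close within a line. On the log2(RPM + 1) scale this scaling moved Nap1l5 to 0.71 in E14 and 0.57 in JB1, since it also changes what the added 1 is worth. The tables were scaled separately, and no test was made across them.

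The genes from which the retrogenes were copied, or whose products are their closest relatives, were not higher as a group. Of 6 source genes and paralogs, 2 were higher and 4 lower in each line, with medians of −0.01 in E14 and −0.05 in JB1, against 0.02 and 0.01 over all genes. Mcts1, the X-linked source of Mcts2, was at 12.7 RPM in the E14 knockout and 13.9 RPM in E14 wild type, and at 18.3 and 18.9 RPM in the JB1 knockout and wild type. The Mcts2-to-Mcts1 ratio was 1.98 in the E14 knockout and 1.07 in E14 wild type, 1.84 times as high (95% interval 1.61 to 2.10), and 0.914 and 0.862 in JB1, 1.06 times as high (95% interval 0.954 to 1.18). The E14 counting interval of Mcts1 itself included no change. Zrsr2, a splicing factor gene of the minor spliceosome, was at 39.5 and 40.2 RPM in the E14 knockout and wild type and at 37.1 and 53.6 RPM in JB1, 1.44-fold lower there (95% interval 1.38 to 1.51). The Zrsr1-to-Zrsr2 ratio was 0.8004 and 0.635 in the E14 knockout and wild type, and 0.608 and 0.448 in JB1, so in JB1 it was the lower Zrsr2 that moved the ratio. Nap1l1, the broadly expressed nucleosome assembly gene, was at 347 and 282 RPM in the E14 knockout and wild type and at 1263 and 846 RPM in JB1, 1.23- and 1.49-fold higher. Nap1l4 differed by 0.03 and 0.19.

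Genes that work with the encoded proteins or share their family are given by list. Of 4 partner genes, 3 were higher in E14 and 2 in JB1 (medians 0.11 and 0.10). Denr, which forms the reinitiation complex with MCTS1, differed by 0.24 and 0.23, and U2af1, a splicing factor, by 0.09 and 0.23. Of 11 genes of the COMMD family and its complex, 4 were higher in E14 and 7 in JB1 (medians −0.07 and 0.02). Commd3 was at 12.0 and 14.8 RPM in the E14 knockout and wild type and at 8.81 and 19.6 RPM in JB1, where it was 2.22-fold lower, and Commd10 differed by −0.20 in both lines. Of 4 other HERC genes, 3 reached 1 RPM in E14, of which 1 was higher, and 4 in JB1, of which 1 was higher (medians −0.08 and −0.08). Herc2 differed by −0.08 and −0.25, Herc1 by −0.17 and −0.14 and Herc4 by 0.16 and −0.02. Of the signal peptide peptidase family, 1 of 3 genes was listed, Sppl3, at 0.06 and −0.19.

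Of 11 other phosphoinositide phosphatases, 6 were higher in E14 and 5 in JB1 (medians 0.06 and −0.00), against 0.31 and 0.46 for Inpp5f. Synj2, which encodes a synaptojanin, was at 7.38 and 12.8 RPM in the E14 knockout and wild type and at 2.76 and 8.60 RPM in JB1, 1.74- and 3.11-fold lower. Inpp5d, which encodes SHIP1, was at 108 and 104 RPM in the E14 knockout and wild type and at 34.3 and 21.0 RPM in JB1. None of these family members passed the limma threshold, which called 0 genes.

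**Figure D3:**
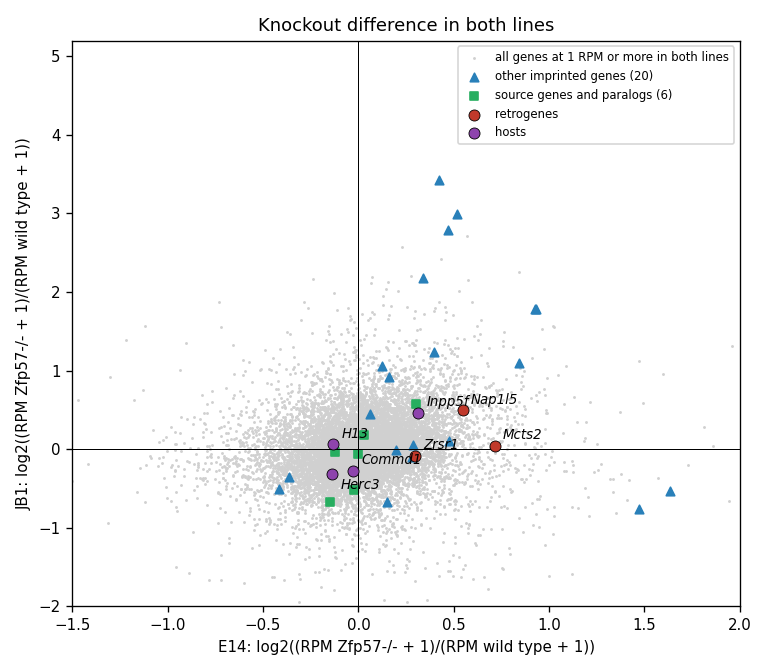
Log2 difference between knockout and wild type in E14 (horizontal) and JB1 (vertical) for 11890 genes at 1 RPM or more in both lines (grey; 18 lie outside the axes), with retrogenes, hosts, source genes and paralogs, and other imprinted genes marked. Mcts2 lies at 0.71 and 0.04, and Nap1l5 at 0.55 and 0.49.

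A list of 23 other imprinted genes, most of them read from the copy whose germline control region is unmethylated, is given for scale. Gnas, whose main transcript is read from both copies in most tissues, is on it. In E14, 20 of all 23 were higher and 2 at least 2-fold so, with a median of 0.30, and Mcts2, Nap1l5 and Zrsr1 were at 0.71, 0.55 and 0.30. In JB1, 16 of all 23 were higher and 10 at least 2-fold so, with a median of 0.45, and Mcts2, Nap1l5 and Zrsr1 were at 0.04, 0.49 and −0.09. In each line 2 of the list reached 1 RPM in the knockout only, Magel2 and Nnat in E14 and Peg12 and Nnat in JB1. Among those at a mean of at least 5 RPM, the 4 with the farthest mean differences were Rian at 0.42 in E14 and 3.43 in JB1, Meg3 at 0.52 and 2.99, Mirg at 0.47 and 2.79, and H19 at 0.93 and 1.78. These are counts beside each other and not a test of the retrogenes against that list.

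The genes around the 4 loci did not all move with the retrogenes. Within 500 kb of H13, 12 other genes reached 5 RPM, with medians of 0.12 in E14 and −0.10 in JB1. Id1, an inhibitor of basic helix-loop-helix factors, was the one among them past 2-fold in E14, at 7.65 and 2.12 RPM in the knockout and wild type, 3.61-fold (95% interval 2.93 to 4.49), and it was at 8.42 and 3.32 RPM in JB1. Trib3, a pseudokinase gene, differed by 0.29 in E14 and −0.67 in JB1.

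Around Herc3 only 2 genes reached 5 RPM, Abcg2, a drug efflux transporter gene, and Tigd2. Both were lower in the E14 knockout, at 24.7 and 35.7 RPM and at 6.37 and 10.6 RPM in knockout and wild type, in which Nap1l5 was higher. Both were higher in the JB1 knockout, Abcg2 at 61.7 and 30.2 RPM and Tigd2 at 14.7 and 10.6 RPM. In E14 Nap1l5 thus went against its flanking genes, and in JB1 it was Herc3 that did. Of the 5 flanking genes at Commd1 and the 6 at Inpp5f none was past 2-fold in either line. The chaperonin gene Cct4 next to Commd1 differed by 0.12 and 0.28. At Inpp5f the medians were −0.07 in E14 and 0.05 in JB1, against 0.31 and 0.46 for Inpp5f itself.

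**Figure D4:**
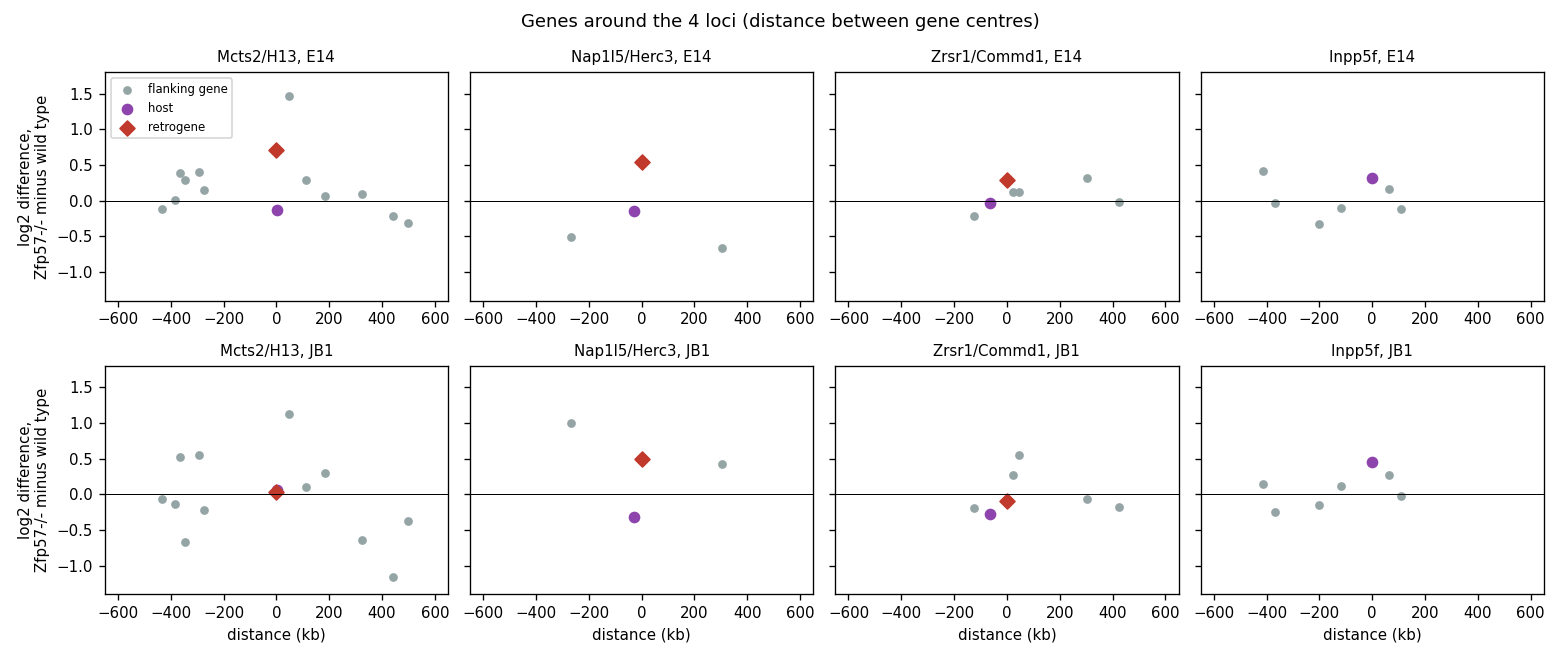
Log2 difference between knockout and wild type (vertical) against the distance in kb between gene centres from the retrogene, or from Inpp5f, for genes that reach 5 RPM and start within 500 kb of the host, in E14 (upper row) and JB1 (lower row). Nap1l5 lies above zero in both lines, while its 2 flanking genes lie below zero in E14 and above it in JB1.

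The genes whose pair of line differences lay nearest to each retrogene were found by Euclidean distance among 8659 genes at a mean of 5 RPM or more in each line, over 2 differences each. They were Zfp428, Rplp1 and BB287469 for Mcts2 (distances 0.06 to 0.07), Snrpd2 and Iqgap2 for Nap1l5 (0.02 each), and Manbal, Dmwd and Atp13a2 for Zrsr1 (0.01 each). No other imprinted gene of the list above was among them.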

How the data were processed

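Per the labels' protocols, libraries came from the TruSeq Stranded mRNA kit. The tools named in the submitters' processing notes are CASAVA (1.8.2), TopHat2 (2.0.8b) and cutadapt, and the build is mm9. The annotation, the counting tool and its strand setting are named neither in the labels nor in these notes. The authors deposited log2 values of RPM per gene, 1 table a line. In each library 0.9 × 2^(value − lowest value) was whole for 100% of genes above the lowest value (relative tolerance 0.0001), so whole reads were recovered and genes without reads were set to 0. Python 3.11.15, scipy 1.17.1, R 4.3.3 and limma 3.58.1 (eBayes with trend, on genes whose mean reached 1 RPM) were used, and the limma script was tested on simulated data. Fold intervals are exact conditional binomial intervals on reads, and ratio-of-ratio intervals are exact conditional odds ratio intervals. In the shallowest library 0 reads left room for 0.0594 RPM (3 reads). Within a line genes at 1 RPM or more in either library were counted when past 2-fold. The members and gene lists were chosen with earlier results of these data known. Named genes were the members, flanking genes, and of each list those at a mean of at least 5 RPM with the farthest mean difference, plus Mcts1, and for each retrogene the 3 genes with the nearest differences; some genes that meet this rule are not reported here. Promoter windows, GENCODE M21 exons and transcripts are on GRCm38, and all other coordinates are those of the tables (mm9). The libraries of a line were paired by the line as a term, since they share its strain.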

Additional observations from a re-analysis of the deposited data

Results flagged for a closer look

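Of the members and the flanking, family and marker genes named above, 4 had knockout differences of opposite sign in the lines, with counting intervals clear of no change in each. This count covers only genes named in the text. Genes of the same lists not named above also met the condition. Among them were the imprinted genes Plagl1, at 1.47 in E14 and −0.76 in JB1, and Peg13, at 1.64 and −0.53. The share of all genes that met it was not counted. Abcg2 differed by −1.52 between the lines (E14 minus JB1, log2 scale), Tigd2 by −1.09, and Trib3 by 0.96. The stem cell marker Pou5f1 differed by −0.14, a small difference at a high read count. The difference between the lines was not tested, since each has 1 library a genotype. No member met this condition. Zrsr1 and H13 changed sign between the lines, but the JB1 interval of each included no change.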

How the results depend on the processing

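None of the 7 members passed the limma threshold under any setting tried (other pseudocounts, filters, scaling, centring, eBayes without trend or robust, and without the cell line as a pairing term), with adjusted p between 0.581 and 1.00, and the number of genes called stayed at 0. Zfp57 itself was among the genes not called, so this does not show that the members were unchanged. Without the replicate block the shared differences were the same, such as 0.52 for Nap1l5, with an adjusted p of 1.00 for each member. Leaving out either line gives the difference of the other, with no test: from 0.04 to 0.71 for Mcts2, 0.49 to 0.55 for Nap1l5, −0.086 to 0.30 for Zrsr1, −0.13 to 0.060 for H13, −0.31 to −0.14 for Herc3, −0.27 to −0.03 for Commd1 and 0.31 to 0.46 for Inpp5f, so the direction of Zrsr1 and of H13 rests on the E14 line. An added 5 RPM moved Nap1l5 to 0.18 in E14 and 0.18 in JB1. With genes filtered at a mean of 5 RPM, Nap1l5 was left out and has no value. The chromosome 6 median taken off turned Herc3 in E14 to 0.14. The alternatives with B3gnt2 reads taken off Commd1 (0.20 in E14, −0.35 in JB1, and 0.094 for Zrsr1 minus Commd1 in E14) and with the other Zrsr1 entry were chosen after seeing the data. Of all settings within a line, with those chosen after seeing the data counted in, 69 for single members and 33 for pairs stayed within the counting interval. Those that moved a value further numbered 5 and 1. For pairs, taking off the median or the chromosome median cancels between retrogene and host, so those settings could not move the value. Genes at least 2-fold higher numbered 117 in E14 and 328 in JB1, 224 and 577 with an added 0.25 RPM, and 44 and 111 with an added 5 RPM. Genes at least 2-fold lower numbered 33 and 208, 63 and 332 with an added 0.25 RPM, 6 and 83 with an added 5 RPM, and 54 in E14 when scaled by the reads in the listed genes. The depth limits Nap1l5, with 31 to 156 reads a library. The spread between cultures was not measured.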

Other observations

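In GENCODE M21 (GRCm38) the hosts differ in where their transcripts end. Of 6 H13 transcripts, 2 end before Mcts2, the nearer one 334 bases upstream of it, and 3 run past. Of 12 Herc3 transcripts, 10 end before Nap1l5, the nearest 724 bases away, and 1 runs past. Of 6 Commd1 transcripts none ends before Zrsr1. The deposited values give 1 number a gene, so shorter and longer host transcripts were not told apart, and the small host differences do not say which of them changed.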
